A study of Mus musculus with 16 samples.

Results

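Among 16 arrays of retroperitoneal fat, the depot behind the abdominal cavity, 8 came from ovariectomised mice, and these 8 arrays are described here. They were chosen by their labels, which name female mice after gonadectomy (GDX). The remaining 8 arrays came from orchidectomised males under the same treatments and serve for the test of a sex difference and for a few values set beside female ones. The design asks what a single dose of dihydrotestosterone (DHT) does to the messenger RNA of fat over the following day.

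All 8 arrays share ovariectomy, so the vehicle mice too had no ovaries. The vehicle group had 2 arrays, called vehicle 1 and vehicle 2 in the order of their accessions. Each DHT group had 1 array, from mice given 0.1 mg DHT under the skin 1, 3 or 6 h (early) or 12, 18 or 24 h (late) before necropsy. The vehicle labels carry a time of 24 h, taken here to be that since the vehicle injection. Strain and age of the mice are not given in the labels. The protocol describes collecting the fat of a group's mice together, so an array may hold RNA of several animals. No label says that the 2 vehicle arrays came from separate animals, so p-values reflect only how these samples vary, and that variation may be technical.

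DHT is the potent androgen formed from testosterone, and it binds the androgen receptor, a steroid-activated transcription factor. The receptor waits in a chaperone complex in the cytoplasm, enters the nucleus with its hormone and binds response elements that are built like those of the glucocorticoid receptor. Genes near such elements therefore overlap between androgens and glucocorticoids, and many encode feedback regulators, stress response proteins or metabolic enzymes. In fat, androgens are known to act on both preadipocytes and mature adipocytes.

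Values are signals, the linear brightness of a probe set after scaling of each array to a common mean. Differences are given as log2(signal + 16) of DHT minus vehicle with the standard error of limma, a linear model fitted over all genes. They understate the change of genes with low signals. One probe set stood for each gene, and 5683 genes with a mean signal of at least 119.675 were tested. A gene passed when its p-value, adjusted by Benjamini-Hochberg over all 5683 genes, was under 0.05.

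The arrays held fat of females. Adipoq, the adipocyte hormone adiponectin, had signals of 19206 to 28657 on the 8 arrays, and Xist, the RNA of the inactive X chromosome, had 1033 to 2200. Array medians lay between 194 and 220. The 15 control probe sets whose names end in _st, called antisense controls here, did not have a common level. Their mean log2(signal + 16) was 7.58 on vehicle 1 and 6.66 on vehicle 2. After DHT the early arrays had levels of 6.13 to 6.29, and the late ones 7.32 to 7.995. By control level, vehicle 2 thus lay nearer to the early arrays and vehicle 1 nearer to the late arrays. The correlation of log2 signals across the genes tested was 0.919 between both vehicle arrays, 0.972 to 0.978 among the early arrays and 0.897 to 0.944 among the late arrays. By correlation the 24 h array lay nearer to vehicle 2 (0.954) than to vehicle 1 (0.931). It also lay nearer to the early arrays (0.957 to 0.967) than to those of 12 h (0.917) and 18 h (0.897). The 1 h array was at 0.952 with vehicle 1 and 0.948 with vehicle 2. The 3, 6, 12 and 18 h arrays were ordered as by control level. Ratios of 3' to 5' control probe sets were 0.918 to 1.32 for Actb and 0.801 to 0.907 for Gapdh.

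The comparison of all 6 DHT arrays with both vehicle arrays treats the times as replicates. With means taken on the log2 scale, Fkbp5, Inmt, Mt2 and Gadd45g were 2.35-fold to 3.17-fold over vehicle after DHT. Chst3, Ptprv and Gdap10 lay in the same range. No gene passed the test, and 128 genes had an unadjusted p under 0.05, of which 96 were higher and 32 lower with DHT. Those 128 genes were 2.25% of the genes tested, a share below the cut of 0.05 itself, with 1.69% higher and 0.563% lower. Without a test, 150 genes (2.64%) had all 6 DHT arrays above both vehicle arrays and 89 genes (1.57%) had all 6 below. Without vehicle 1 these counts were 1000 and 1155, without vehicle 2 they were 792 and 534, and without the 18 h array they were 239 and 164. For a single gene, the exact two-sided permutation test over 28 assignments of the 8 arrays cannot give a p below 0.0714.

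Target genes of hormone response elements were the list with the most separated members among the pathway lists. Of 36 list members with a probe set, 31 were tested. The difference was positive for 25 of the 31 and negative for 6, with a median of 0.30, while the median over all genes tested was 0.01. None of the 31 passed the test. Of the 31, 6 had all DHT arrays above both vehicle arrays, 19.4% against the 2.64% of all genes, and 0 had all below. These 6 were Gadd45g, Errfi1, Cebpd, Cdkn1a, Inmt and Angptl4. The list was drawn up with earlier results of these data known, so its share is not independent of these data. Without vehicle 1 the count was 10 (32.3%, against 17.6% of all genes), without vehicle 2 it was 13 (41.9% against 13.9%), and without the 1 h array it was 10 (32.3% against 3.29%). In tissue RNA, a change in the number of cells of a type and a change in RNA per cell cannot be told apart.

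Fkbp5 encodes a co-chaperone that sits on steroid receptors and lowers their hormone affinity, and its gene is a standard target of androgens and glucocorticoids. Its signals were 332 and 552 on vehicle 1 and vehicle 2. They were 515, 1240 and 2454 at 1, 3 and 6 h of DHT and 2648, 1574 and 1102 at 12, 18 and 24 h. The 1 h array lay between both vehicle arrays and the 5 later arrays lay above them, highest at 6 and 12 h. The difference was 1.66 ± 0.51 over all times (3.17-fold, limma adjusted p = 1.00) and 1.92 ± 0.57 over 12, 18 and 24 h (limma adjusted p = 0.979). Against the vehicle array with the nearer control level, the early arrays were 1.06 higher than vehicle 2 and the late arrays 2.27 higher than vehicle 1.

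The metallothioneins Mt1 and Mt2 are small cysteine-rich proteins that bind zinc and copper, and glucocorticoids and metals are known to induce them. Mt2 had signals of 1436 and 1642 with vehicle. It had 1262, 3400, 10010, 6565, 5155 and 3374 at the successive times after DHT, below both vehicle arrays at 1 h and above both from 3 h on, with the top at 6 h. The difference was 1.42 ± 0.58 over all times (2.67-fold, limma adjusted p = 1.00). Mt1 had 2536 and 1429 with vehicle and 1603, 2384, 6552, 4996, 4039 and 3071 with DHT. Its 1 h and 3 h arrays lay between the vehicle arrays, and its 4 later arrays lay above both, again with the top at 6 h. The difference of Mt1 was 0.83 ± 0.45 (1.78-fold, limma adjusted p = 1.00). At 6 h alone, Mt2 was 6.46-fold and Mt1 3.42-fold over the vehicle mean taken on the log2 scale.

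Both genes lie next to each other on mouse chromosome 8, and their promoters are shown because the 2 transcripts had their highest signal on the same array. The sequences are the 250 bases before each transcription start, from RefSeq on the assembly GRCm38.p6, plus strand, at chr8:94172368-94172617 for Mt2 and chr8:94178839-94179088 for Mt1. Capitals mark matches, on either strand, to the cores of the metal response element, TGCACNC and TGCGCNC.
Mt2: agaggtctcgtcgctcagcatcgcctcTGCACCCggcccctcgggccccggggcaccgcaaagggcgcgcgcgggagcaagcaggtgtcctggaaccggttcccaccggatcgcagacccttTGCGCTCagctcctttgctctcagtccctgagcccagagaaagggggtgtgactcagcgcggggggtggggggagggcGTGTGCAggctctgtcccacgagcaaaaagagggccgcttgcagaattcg
Mt1: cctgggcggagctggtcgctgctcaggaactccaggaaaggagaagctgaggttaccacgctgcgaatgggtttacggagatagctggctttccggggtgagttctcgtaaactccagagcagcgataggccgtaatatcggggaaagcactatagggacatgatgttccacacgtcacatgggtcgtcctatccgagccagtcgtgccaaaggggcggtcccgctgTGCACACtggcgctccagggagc

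The Mt2 window held 3 matches, 2 to TGCACNC and 1 to TGCGCNC, and the Mt1 window held 1, to TGCACNC. Of 32851 promoters of the same length, 10.4% held TGCACNC, 12.5% held TGCGCNC, 21.4% held either and 1.26% held at least 3 matches. The half-site of the hormone response element, AGAACA on either strand, was found in neither window. It occurred in 16.1% of all promoters. Counted by gene, it occurred in promoters of 18.2% of 27025 genes and of 4 of the 27 hormone list members that could be matched. Both statements concern letters in this window only.

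Gadd45g, a growth arrest and DNA damage response gene, was above vehicle from the first time on. With vehicle it had 308 and 354, and with DHT 794, 1156 and 1165 at the early times and 873, 435 and 635 at the late times. All 6 DHT arrays lay above both vehicle arrays, with the top at 3 and 6 h. The difference was 1.24 ± 0.33 over all times (2.35-fold, limma adjusted p = 1.00) and 1.59 ± 0.29 over the early times (limma adjusted p = 0.560).

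Cebpd encodes a transcription factor of early adipocyte differentiation and also had its top at 3 and 6 h. Its signals were 666 and 777 with vehicle and 1285, 1659, 1677, 1090, 913 and 1045 with DHT, without overlap between the groups. The difference over the early times was 1.07 ± 0.18 (limma adjusted p = 0.525), and over the late times it was 0.48 ± 0.18 (limma adjusted p = 0.979). Errfi1, an inhibitor of the epidermal growth factor receptor, had 771 and 862 with vehicle and 1583, 1547, 1443, 1687, 1254 and 903 with DHT. Every DHT array was above vehicle, and by 24 h the margin over vehicle 2 was small for this probe set. A further Errfi1 probe set had 471 and 539 with vehicle and 1128 at 24 h, with a difference of 1.04 over all times. The difference was 0.74 ± 0.22 over all times (limma adjusted p = 1.00).

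Cdkn1a, the cyclin-dependent kinase inhibitor p21, had 321 and 400 with vehicle and 583, 604, 962, 717, 785 and 425 with DHT. The groups did not overlap, and the top was at 6 h. A further Cdkn1a probe set showed a difference of 0.26, against 0.85 ± 0.27 for the probe set used. Angptl4, a secreted inhibitor of lipoprotein lipase, had 2366 and 1745 with vehicle and 2376 to 2915 with DHT, so that its 1 h array lay just above vehicle 1. Its difference was 0.41 ± 0.15, and other Angptl4 probe sets gave 0.41, -0.06 and -0.38.

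Inmt, a methyltransferase that acts on small amines, had a later course than the genes above. Its signals were 146 and 129 with vehicle and 166, 316, 438, 577, 682 and 650 at the successive DHT times. Signals were higher at each time up to 18 h, and all 6 exceeded both vehicle arrays. The difference was 0.97 ± 0.34 over the early times (limma adjusted p = 1.00) and 2.08 ± 0.34 over the late times (limma adjusted p = 0.648). In a fit with log2 of the time as covariate Inmt was the only gene to pass for DHT over all times (limma adjusted p = 0.0478). The late arrays were 2.003 above vehicle 1, and the early arrays 1.05 above vehicle 2.

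**Figure D1:**
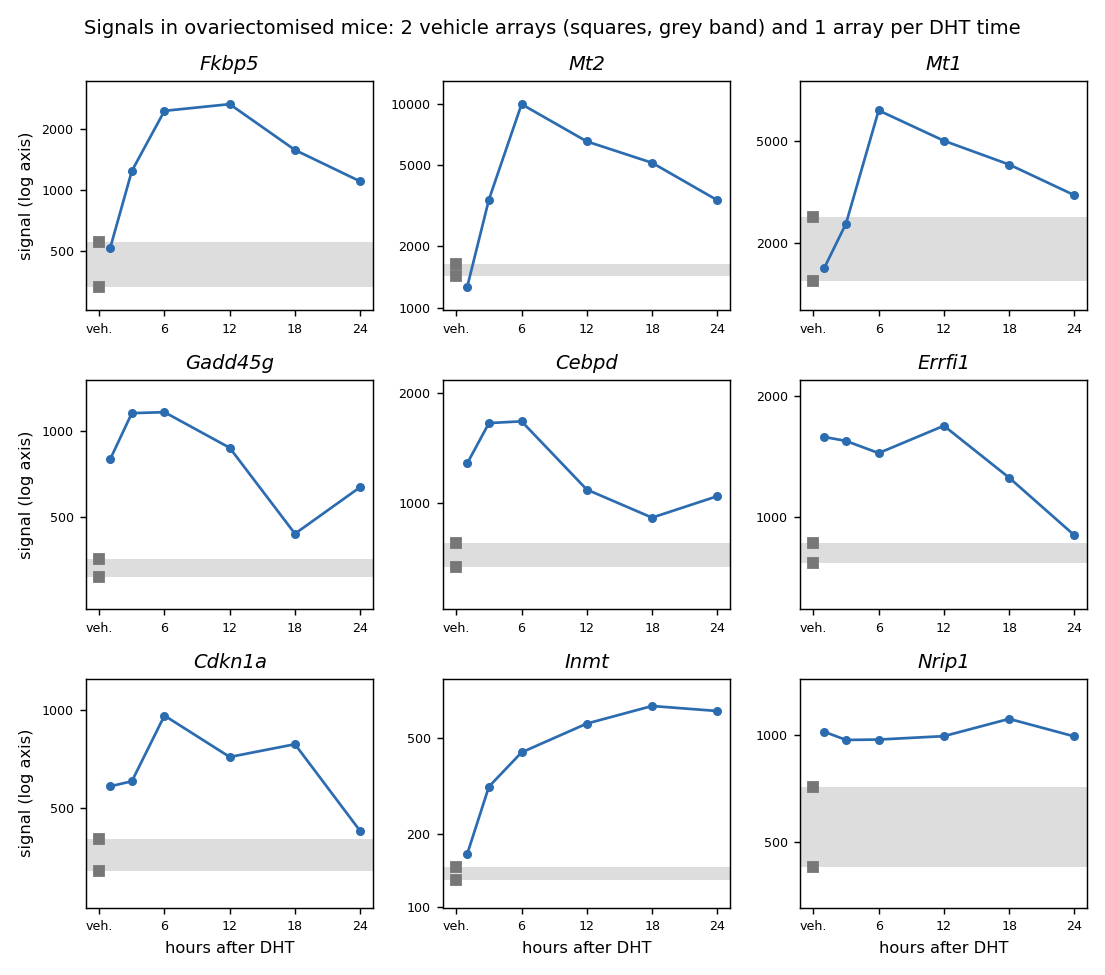
Signals of 9 genes in ovariectomised mice (vertical log axis) against hours after DHT, with both vehicle arrays as squares joined by a grey band and 1 array at each DHT time. Mt1 and Mt2 are highest at 6 h, Fkbp5 at 12 h and Inmt at 18 h, while Gadd45g and Cebpd are highest at 3 and 6 h.

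Among the other tested members, Pdk4, the kinase that shuts pyruvate dehydrogenase, had 485 and 662 with vehicle and 1049, 1296, 1042, 662, 738 and 1022 with DHT. Its difference was 0.97 ± 0.23 over the early times (limma adjusted p = 1.00), and the 12 h array equalled vehicle 2 to the whole number. Zbtb16, a zinc finger transcription factor, had 493 and 968 with vehicle and its highest signal, 1847, at 6 h. The 18 h and 24 h arrays of Zbtb16 lay within the vehicle range, and a further Zbtb16 probe set showed a difference of -0.24. Differences over all times were 0.12 ± 0.20 for the kinase Sgk1, 0.10 ± 0.20 for the phosphatase Dusp1 and -0.32 ± 0.27 for the clock gene Per1. Tsc22d3, Tat, Klk1, Tmprss2 and Gadd45b were below the signal filter.

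Outside that list, the genes with the smallest p among the higher ones were led by Atm and Nrip1. Nrip1 encodes a corepressor of nuclear receptors that limits energy use in fat cells. It had 714 and 424 with vehicle and 1024, 971, 973, 995, 1113 and 993 with DHT, nearly level over the times and above both vehicle arrays. The difference was 0.86 ± 0.19 (1.81-fold, limma adjusted p = 1.00), and without vehicle 2 it was 0.49. Atm, the DNA damage kinase, had 92.4 and 92.3 with vehicle and 182 to 284 with DHT, a difference of 1.10 ± 0.23.

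Mpv17, a mitochondrial inner membrane protein, was at 178 and 194 with vehicle and 254 to 382 with DHT (0.75 ± 0.19). Chst3, a sulfotransferase of chondroitin, had 76.4 and 70.8 with vehicle and 92 to 299 with DHT (1.32 ± 0.37). Further genes had vehicle arrays far apart, with 663 and 336 for Gna13, a G protein subunit (0.87 ± 0.25), 522 and 176 for Gdap10 (1.32 ± 0.36) and 37.2 and 101 for the receptor phosphatase Ptprv (1.47 ± 0.42). Depending on the vehicle array left out, the difference of Gna13 was 0.40 or 1.35 and that of Gdap10 was 0.57 or 2.06, and without vehicle 1 that of Ptprv was 0.90. A further Gna13 probe set gave 0.25, and further Ptprv probe sets gave -0.06 and 0.03. With the mean over probe sets the differences were 0.56 for Gna13 and 0.48 for Ptprv. All of these genes had limma adjusted p = 1.00, and all 12 named on the higher side had the smallest p that the exact permutation test allows, 0.0714.

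Smtn, Ckm and Myoz1 were also among the 12 genes of smallest p on the higher side. Smtn encodes smoothelin of contractile smooth muscle, with 103 and 322 with vehicle and 355 to 504 with DHT (1.22 ± 0.32), a difference of 0.47 without vehicle 1 and 1.98 without vehicle 2. Of 13 smooth muscle genes tested, 12 had positive differences, beside 2911 of all 5683 genes, and the median was 0.27. All DHT arrays lay above vehicle for 3 of them, Smtn, Acta2 and Mylk, 23.1% against 2.64% of all genes. The summed signal of that list was 14707 and 16386 with vehicle and 16220 to 21246 with DHT, so the groups overlapped. Ckm, the muscle creatine kinase, had 186 and 161 with vehicle and 269 to 531 with DHT (1.05 ± 0.25), a further Ckm probe set gave 0.17, and the mean over probe sets 0.61. Myoz1, a protein of the skeletal muscle Z-disc, had 779 and 630 with vehicle and 925 to 1203 with DHT (0.56 ± 0.16).

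Skeletal muscle markers were followed beside Ckm and Myoz1. Of 27 listed, 25 were on the array and 22 tested, and 19 of these had positive differences (86.4%, against 51.2% of all genes), with a median of 0.20 over all times and 0.46 over the early times. Their summed signal was 33766 and 33542 with vehicle and 50014, 36980, 57436, 36569, 23411 and 44202 with DHT. The sum was highest at 1 and 6 h, as was the Ckm probe set used. It was lowest at 18 h, where that probe set was lowest among the DHT arrays. The further Ckm probe set ran otherwise, with 36.6 at 1 h, 143 at 6 h and 246 at 18 h. It had 177 and 93.8 with vehicle. Acta1, skeletal alpha-actin, ranged from 3220 to 9629 over the 8 arrays. The part of muscle RNA in the results for Ckm and Myoz1 was not tested.

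Genes on the lower side were of mixed function. Pklr, the pyruvate kinase of liver and red cells, had 677 and 339 with vehicle and 371, 233, 74.2, 117, 140 and 105 with DHT. The 1 h array lay between the vehicle arrays and the others below both, with a difference of -1.57 ± 0.49. A further Pklr probe set gave -0.17, and the mean over probe sets -0.87. Kcnn1, a calcium-activated potassium channel, had 648 and 186 with vehicle and 61.1 to 234 with DHT (-1.60 ± 0.53). Ccnd2, cyclin D2, had 323 and 592 with vehicle and 165 to 209 with DHT apart from 418 at 18 h (-1.02 ± 0.35). Depending on the vehicle array left out, the difference of Kcnn1 was -0.74 or -2.46, and without vehicle 2 that of Ccnd2 was -0.59.

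Smaller differences were seen for other genes. Extl3, a glycosyltransferase of heparan sulfate synthesis, had 1761 and 1628 with vehicle and 1155 to 1391 with DHT (-0.43 ± 0.14). Atp2c1, the calcium and manganese pump of the Golgi, had 470 and 506 with vehicle and 268 to 391 with DHT (-0.54 ± 0.18), but a further Atp2c1 probe set gave 0.46 and the mean over probe sets -0.04. Both genes, by the probe set used, had DHT arrays all below vehicle. Nr2f1 (-0.77 ± 0.28), an orphan nuclear receptor, Zfp598 (-0.39 ± 0.14), a ubiquitin ligase of stalled ribosomes, Phlda3 (-0.47 ± 0.18), an inhibitor of Akt, and Cdsn (-0.46 ± 0.18) also did not overlap with vehicle, nor did Ifngr2 (-0.51 ± 0.20), a chain of the interferon gamma receptor. Igkv6-23 (-0.50 ± 0.19), an immunoglobulin light chain gene, and Hnrnpl (-0.54 ± 0.21), a splicing regulator, overlapped. Depending on the vehicle array left out, the difference was -0.18 or -0.85 for Ifngr2, -0.24 or -0.77 for Igkv6-23 and -0.23 or -0.84 for Hnrnpl. Without vehicle 2 it was -0.46 for Nr2f1 and -0.26 for Zfp598. All 12 had limma adjusted p = 1.00.

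At the early times, 1, 3 and 6 h together, 0 genes were called higher and 1 lower, Sod1 (0.0176% of the genes tested), with 169 genes (2.97%) at an unadjusted p under 0.05, 1.79% higher and 1.18% lower. Sod1 encodes the cytosolic copper-zinc superoxide dismutase. Its signals were 12612 and 7208 with vehicle, 2360, 2538 and 1971 on the early arrays, and 10418, 13310 and 12138 on the late arrays. The 3 early arrays lay far below all 5 others. Sod1 fell by 2.06 ± 0.23 on the log2 scale at the early times (limma adjusted p = 0.0316), and the late minus early difference was 2.38 ± 0.21 (limma adjusted p = 0.00324). At the late times it did not differ detectably from vehicle (0.32 ± 0.23, limma adjusted p = 0.979).

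The groups of arrays were ordered alike in antisense control level and Sod1 signal, but single arrays within the early and late groups were not. All 3 early arrays had the lowest control levels, and vehicle 2, with the lower control level of the vehicle arrays, had the lower Sod1 signal. With the control level as covariate the early difference of Sod1 was -1.50 ± 0.26 (limma adjusted p = 0.086) and the late minus early difference 1.54 ± 0.33 (limma adjusted p = 0.260). Against vehicle 2 alone the early arrays gave a Sod1 difference of -1.66, and against vehicle 1 alone the late arrays gave -0.08. The early call was also lost when any 1 of the 6 DHT arrays was left out (limma adjusted p = 0.0758 to 0.203) and without vehicle 1 (limma adjusted p = 0.0803). In orchidectomised mice the 1 h array, with a control level of 6.30, had a Sod1 signal of 1979. The 3 h and 6 h arrays of those mice, with control levels of 7.65 and 7.10, had 17624 and 12235.

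Other transcripts were also lowest on the early arrays. Klf13, a zinc finger transcription factor, had 1227 and 369 with vehicle, 76.4, 324 and 88.6 at the early times and 1045, 1151 and 850 at the late times. Slc39a1, a zinc importer, had 5410 and 1669 with vehicle, 761 to 1220 early and 3636 to 5162 late. Kdelr2, a receptor that returns proteins to the endoplasmic reticulum, Sdc4, a cell surface proteoglycan, and Gm2a, a cofactor of lysosomal lipid breakdown, had late minus early differences of 1.88 ± 0.29, 1.64 ± 0.28 and 1.38 ± 0.24. None of these 5 passed (limma adjusted p = 0.158 to 0.240 for late against early). With the control level as covariate the late minus early differences were 0.48 for Kdelr2, 0.33 for Sdc4 and 0.59 for Slc39a1. With the mean over probe sets they were 1.06 for Kdelr2 and 1.24 for Slc39a1, whose further probe sets gave -0.07 and -0.19 for DHT over all times. When either vehicle array was left out, Slc39a1, Kdelr2 and the retinaldehyde reductase Dhrs3 passed beside Sod1 for late against early.

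**Figure D2:**
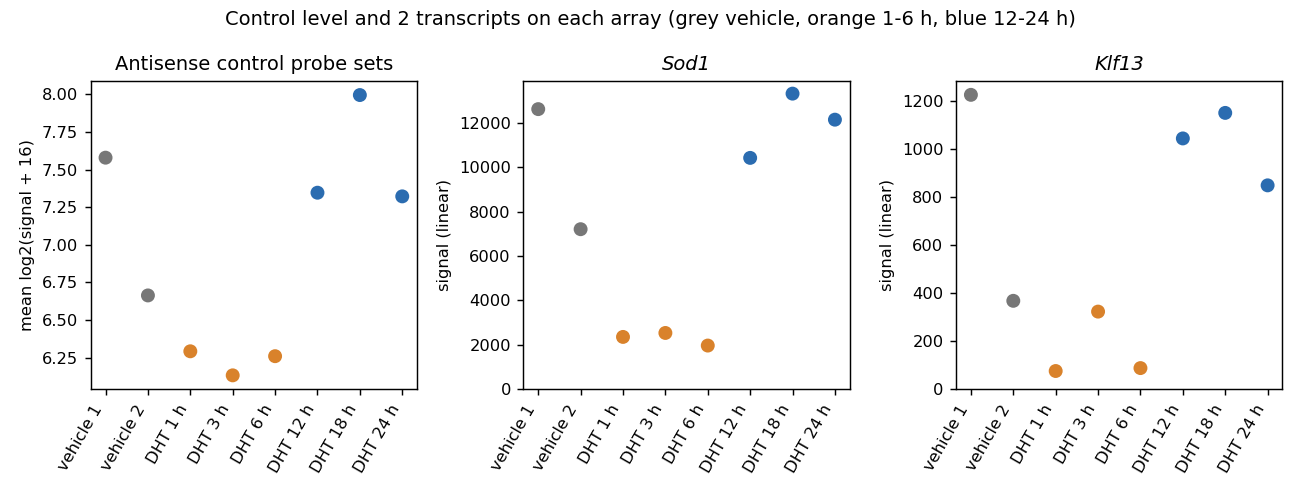
Mean log2(signal + 16) of 15 antisense control probe sets, and linear signals of Sod1 and Klf13, on each of the 8 arrays (grey vehicle, orange 1 to 6 h, blue 12 to 24 h). The early arrays are lowest in all panels, at 6.13 to 6.29 for the control level and 1971 to 2538 for Sod1.

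Among genes higher at the early times, Cebpd and Gadd45g had the smallest p, followed by Ckm (1.22 ± 0.26) and Gdap10 (1.62 ± 0.36), and 0 passed. The early difference of Gadd45g was 1.03 with the control level as covariate, that of Ckm 0.45 with the mean over probe sets and that of Gdap10 0.88 without vehicle 2. All 3 early arrays lay above both vehicle arrays for 660 genes (11.6%) and below both for 428 (7.53%).

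At the late times, 12, 18 and 24 h together, 0 genes passed and 219 (3.85%) had an unadjusted p under 0.05, 2.16% higher and 1.69% lower. All 3 late arrays lay above both vehicle arrays for 381 genes (6.7%) and below both for 385 (6.77%). After Inmt and Atm, the smallest p on the higher side belonged to Cyp2e1 and Gas6. Cyp2e1, a cytochrome P450 that oxidises ethanol and ketone bodies, had 18485 and 16086 with vehicle, then 17017, 22382 and 21517 on the early arrays. Its late arrays had 26546, 28926 and 33427. Every array from 3 h on was above vehicle, and the late difference was 0.77 ± 0.16 (limma adjusted p = 0.979), or 0.38 after quantile normalization. Gas6, the ligand of the TAM receptor kinases, had 2446 and 2563 with vehicle and 4488, 4518 and 4263 at the late times (0.82 ± 0.18, limma adjusted p = 0.979).

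On the lower side at the late times, Gpd1, the glycerol-3-phosphate dehydrogenase that supplies the backbone of triglycerides, had 15925 and 11302 with vehicle and 13142, 13697 and 12480 early. It had 6490, 7073 and 9766 at 12, 18 and 24 h, below every other array (-0.81 ± 0.20, limma adjusted p = 0.979), and a further Gpd1 probe set gave -0.41 over all times. Fmod, the collagen-binding proteoglycan fibromodulin, had 393 and 481 with vehicle and 149, 123 and 237 late (-1.33 ± 0.31), but a further Fmod probe set gave 0.01 over all times and the mean over probe sets -0.60 late. Phlda3 had 3051 and 3374 with vehicle and 1923, 2054 and 2054 late (-0.67 ± 0.15). Rnps1, a splicing factor, had 931 and 890 with vehicle and 323, 281 and 609 late (-1.22 ± 0.31).

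The comparison of late with early times does not use the vehicle arrays as reference, but their spread enters its standard error. One gene passed, Sod1 (0.0176%), and 374 genes (6.58%) had an unadjusted p under 0.05, 3.01% higher late and 3.57% lower. Late arrays all lay above early arrays for 356 genes (6.26%) and below them for 488 (8.59%). Irf4, a transcription factor of lymphocytes, macrophages and adipocytes, had 424, 584 and 209 at the early times and 75.9, 21.1 and 40.7 at the late times, with 151 and 183 for vehicle. The early arrays lay above vehicle and the late arrays below it, and the late minus early difference was -2.75 ± 0.42 (limma adjusted p = 0.158). In a fit of 15 arrays that takes in the males, Irf4 was the gene that passed for late against early in females, and Sod1 did not (limma adjusted p = 0.314). Pla2g6, a calcium-independent phospholipase (-1.49 ± 0.32), and Rnf141, a RING finger protein (-1.09 ± 0.22), were likewise lower late than early without passing (limma adjusted p = 0.347 and 0.291). With the control level as covariate the late minus early differences were -1.65 for Irf4, -0.91 for Pla2g6 and -0.20 for Rnf141.

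Each single time was set against both vehicle arrays without a test, since 1 array per time has no replicate check. A gene was counted when it lay at least 2-fold above the higher or below the lower vehicle array. The 1 h array had 10 genes above (0.176%) and 34 below (0.598%). The 3 h array had 12 above (0.211%) and 18 below (0.317%), the 6 h array 17 above (0.299%) and 22 below (0.387%), and the 12 h array 29 above (0.51%) and 27 below (0.475%). The 18 h array had the most, 44 above (0.774%) and 71 below (1.25%), and the 24 h array had 8 above (0.141%) and 38 below (0.669%). Both vehicle arrays were themselves at least 2-fold apart for 468 genes (8.24%), of which 300 (5.28%) were higher on vehicle 1 and 168 (2.96%) on vehicle 2. This sets 1 array against 1, a looser rule than the one above. By that looser rule the DHT arrays were apart from vehicle 1 for 128 to 348 genes and from vehicle 2 for 146 to 802.

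**Figure D3:**
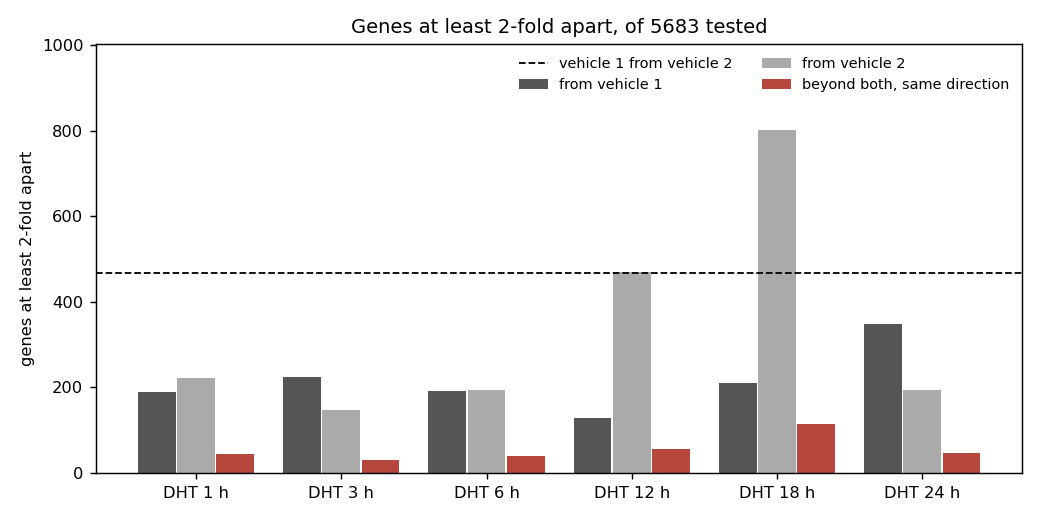
Number of the 5683 tested genes at least 2-fold apart between each DHT array and vehicle 1, vehicle 2, or both in the same direction (bars), with the count between both vehicle arrays as a dashed line at 468. Counts beyond both vehicle arrays run from 30 at 3 h to 115 at 18 h, and only the 12 h and 18 h arrays exceed the dashed line against vehicle 2, with 469 and 802.

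Chst3 led at 1 h with 3.51-fold, and Gadd45g led at 3 h with 3.39-fold, ahead of Irf4 at 3.29-fold and Fkbp5 at 2.83-fold. At 6 h the leaders were Mt2, Fkbp5 at 5.56-fold, Mt1 and Gadd45g at 3.41-fold. At 18 h Inmt stood at 4.55-fold beside Defb2 (5.15-fold), a defensin, and Ptprv (4.70-fold), and at 24 h Inmt led with 4.34-fold. Over the 6 times, Chst3, Inmt and Mt2 were counted as above at 5 times, and Fkbp5, Gadd45g, Nsf and Pheta1 at 4. No gene was counted as above at all 6. The hormone response element list had 1, 5, 7, 4, 3 and 2 members counted as above at the 6 successive times, of 31 tested, beside the 0.176%, 0.211%, 0.299%, 0.51%, 0.774% and 0.141% of all genes given above.

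Large differences on either side were often on 1 array, as 59 genes were counted as above at 1 time only and 130 as below. At 2 times the counts were 9 and 25. Examples from the lower side are given here. Gata4, a transcription factor of mesoderm and endoderm, had 49.1 at 24 h and 338 to 507 on the other 7 arrays. Ctcf, the insulator protein, had 35.3 at 18 h and 224 to 342 elsewhere. Hipk2, a stress-activated nuclear kinase, had 88.1 at 18 h and 454 to 958 elsewhere. Rrm1, the large subunit of ribonucleotide reductase, was at 78.4, 44.5 and 98.9 at 1, 12 and 18 h and at 207 to 321 on the other arrays.

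Transcripts of the exocrine pancreas stood out at 12 h. Cela2a, a pancreatic elastase, had 460 and 515 with vehicle, 18798 at 12 h and 135 to 277 at the other 5 times (37.4-fold at 12 h). Zg16, Prss2 and Clps followed at 14.5-fold, 14.1-fold and 13.9-fold. The summed signal of the 17 pancreas markers on the array was 112880 at 12 h, 12160 and 8248 with vehicle, and 3920 to 7067 on the other DHT arrays. Of the 9 tested, 8 were counted as above at 12 h, beside 0.51% of all genes, and the median at the early times was -1.02. Prss2, a trypsinogen, was at 786 and 959 with vehicle and 12.7 to 327 on all DHT arrays except that of 12 h, and so was counted as below at 5 times. Both vehicle arrays thus also held more pancreas signal than 5 of the 6 DHT arrays, and the part of this in other results was not tested.

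**Figure D4:**
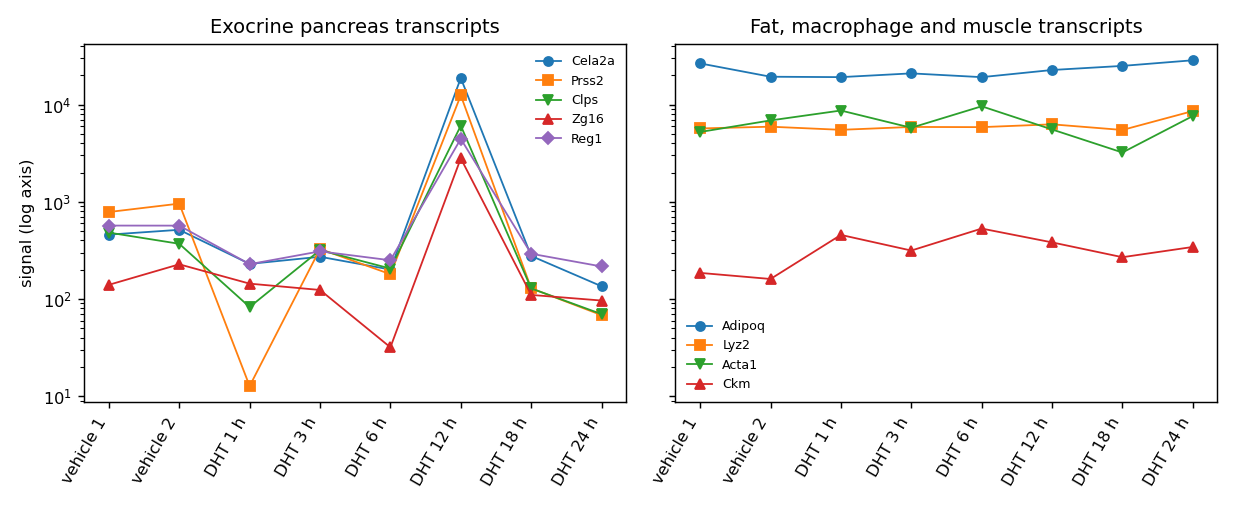
Signals (log axis) on the 8 arrays of 5 exocrine pancreas transcripts (left) and of Adipoq, Lyz2, Acta1 and Ckm for fat, macrophages and muscle (right). The pancreas transcripts peak on the 12 h array, with Cela2a at 18798, while Adipoq stays between 19206 and 28657.

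The metabolic pathways of fat had medians near 0. Fatty acid synthesis had 9 of 16 tested genes positive and a median of 0.00, triglyceride synthesis and fatty acid uptake 10 of 21 and -0.02, lipolysis 4 of 11 and -0.02, and fatty acid oxidation 11 of 19 and 0.03. Oxidative phosphorylation had 21 of 50 positive with a median of -0.02. No gene of these 5 lists passed the test. Within them, Plin4, a coat protein of lipid droplets, had 4724 and 5091 with vehicle and 5455 to 7121 with DHT (0.39 ± 0.13, limma adjusted p = 1.00). Acadm, the medium-chain acyl-CoA dehydrogenase, and Uqcrb, a subunit of complex III, also had all DHT arrays above vehicle, with differences of 0.18 ± 0.14 and 0.35 ± 0.13. These were 1 of 21 genes of triglyceride synthesis and uptake (4.76%), 1 of 19 of fatty acid oxidation (5.26%) and 1 of 50 of oxidative phosphorylation (2%), against 2.64% of all genes.

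Cholesterol synthesis and uptake had 5 of 17 genes positive, with medians of 0.03 early and -0.24 late. Adipocyte differentiation and adipokines had 9 of 22 positive and a median of -0.02, and 2 members, Cebpd and Nampt, lay above vehicle on all DHT arrays (9.09%, against 2.64% of all genes). Lep, the satiety hormone leptin, had a difference of -0.34 ± 0.24, and Agt, angiotensinogen, of 0.50 ± 0.21. The 12 adipocyte markers had a median of -0.02, with summed signals of 98852 and 83867 with vehicle and 82743 to 103822 with DHT.

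Extracellular matrix genes had 22 of 37 positive, with medians of -0.01 early and 0.15 late. For Tnc, tenascin C, the difference was 0.60 ± 0.19, and Thbs2, thrombospondin 2, had 524 and 593 with vehicle and 642 to 857 with DHT (0.42 ± 0.16). The groups did not overlap for these 2 genes, nor for Postn and Col6a3, and Lum was below vehicle on all DHT arrays. The list thus had 10.8% of its tested members above, against 2.64% of all genes, and 2.7% below, against 1.57%. In insulin and IGF signalling, 11 of 21 genes were positive. Igf1, the growth factor, had 2464 and 3031 with vehicle and 3083 to 4485 with DHT (0.42 ± 0.19), and Socs2, a feedback inhibitor of growth hormone signalling, 650 and 776 with vehicle and 798 to 1107 with DHT (0.41 ± 0.16). Another feedback inhibitor, Cish, was below vehicle on all DHT arrays (-0.49 ± 0.26). Of this list 9.52% lay above and 4.76% below on all DHT arrays, against 2.64% and 1.57% of all genes. None of these genes passed (limma adjusted p = 1.00 each).

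Interferon response and antigen presentation had 14 of 31 genes positive, a median of -0.01 and 4 members below vehicle on all DHT arrays. These were Ifit3 (-0.31 ± 0.16), Irf7 (-0.30 ± 0.16), Ifi35 (-0.29 ± 0.16) and Irf1 (-0.19 ± 0.15), which made 12.9% of those tested against 1.57% of all genes. Macrophage markers had 8 of 18 positive with a median of -0.01 over all times, and medians of -0.13 early and 0.10 late. Endothelium markers had 4 of 13 positive with a median of -0.16. Neutrophil markers had 5 of 6 tested positive and a median of 0.34, and the list's summed signal overlapped between the groups, at 2973 and 2503 with vehicle and 2442 to 4526 with DHT.

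**Figure D5:**
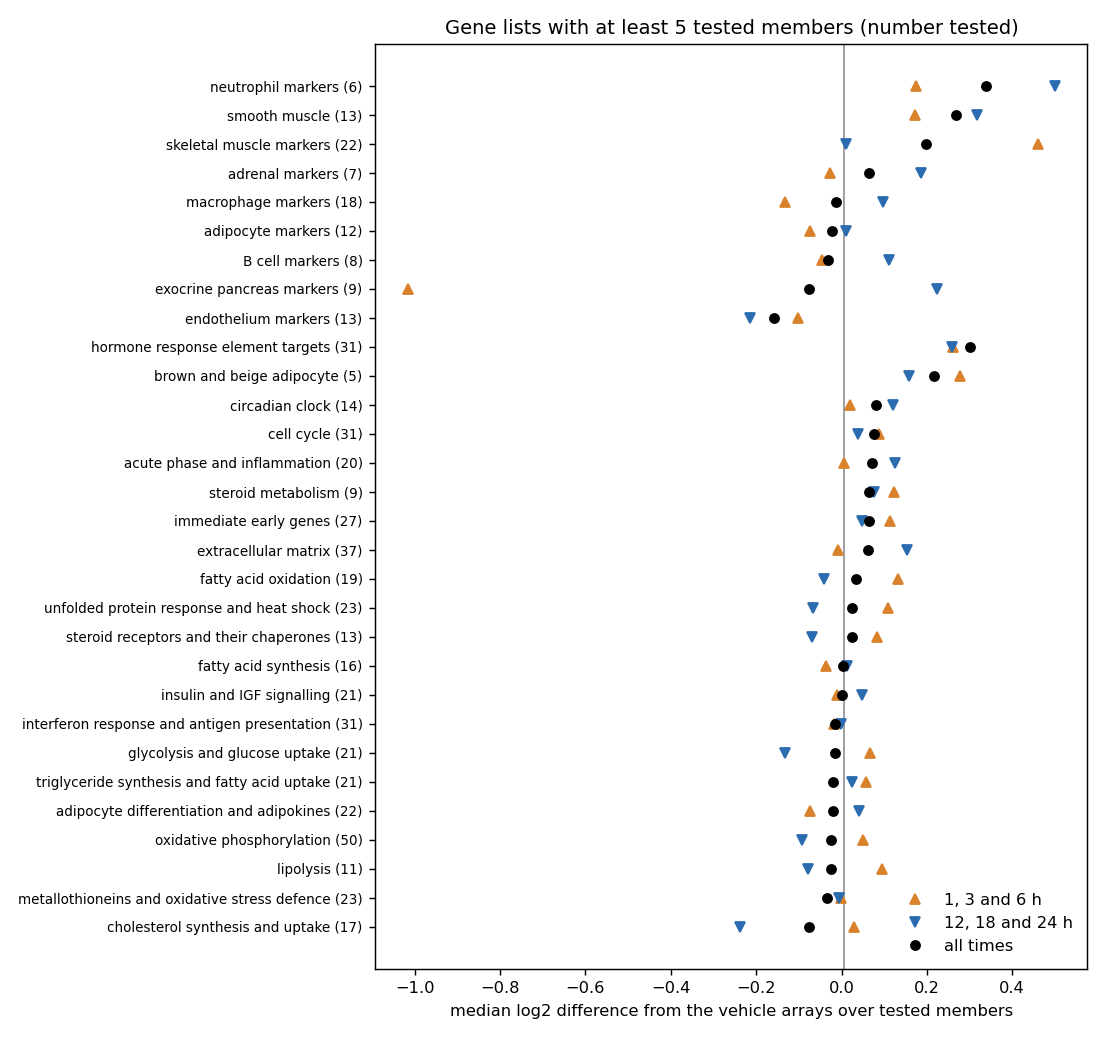
Median log2 difference from vehicle over the tested members of each gene list with at least 5 tested members (number in brackets), for all times (circles), 1 to 6 h (upward triangles) and 12 to 24 h (downward triangles), with the median of all genes as a grey line. Hormone response element targets have the highest median among pathway lists over all times, at 0.30, and exocrine pancreas markers the lowest early median, at -1.02.

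The DHT response of ovariectomised mice was compared with that of orchidectomised mice in 1 fit, as a difference of log2 responses. A male vehicle array rich in muscle transcripts was left out, which leaves 1 male vehicle array and 15 arrays in all. No gene passed, and 158 genes had an unadjusted p under 0.05 (2.78%). With all 16 arrays 0 passed and 767 had an unadjusted p under 0.05 (13.5%). The log2 response was 1.66 in females and 1.26 in males for Fkbp5 (difference 0.41 ± 0.83), 1.42 and 1.37 for Mt2 (0.05 ± 0.94), and 1.24 and 1.58 for Gadd45g (-0.35 ± 0.60). It was 0.74 and 0.70 for Errfi1 (0.05 ± 0.37) and 0.85 and 0.90 for Cdkn1a (-0.05 ± 0.46). Each of these 5 differences was smaller than its standard error, which is wide for Fkbp5 and Mt2.

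Inmt and Nrip1 had larger female responses in this comparison without passing. For Inmt the responses were 1.53 and 0.27 (difference 1.26 ± 0.79), and its male vehicle signal on the array kept was 891 where the female ones were 146 and 129. For Nrip1 they were 0.86 and 0.05 (difference 0.80 ± 0.33). The smallest p belonged to Gtse1, a cell cycle protein (-2.23 ± 0.42, limma adjusted p = 0.423), Cyp2f2, a cytochrome P450 (1.58 ± 0.35, limma adjusted p = 0.794), and Smtn (2.51 ± 0.57, limma adjusted p = 0.794). Ckm (1.87 ± 0.46), Mmp9 (-2.22 ± 0.57) and Dvl1 (-0.89 ± 0.24) followed, and with all 16 arrays Dvl1 changed sign to 0.15, Ckm was at 3.86 and Cyp2f2 at 0.86.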

How the data were processed

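Total RNA was profiled on single-colour Affymetrix arrays. Each probe set has a deposited intensity on a linear scale. The authors used MAS5 according to the submitters' processing notes, with the version not given in the sources used here. Each array's mean was 500 after trimming 2% of probe sets at each end. Signals are therefore relative to the whole array, and the number of arrays limits the precision.

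Of 12488 probe sets, 10855 carried a single gene symbol in the platform annotation, 396 several and 1237 were not listed. The brightest probe set by mean log2 signal stood for each of 8252 genes (a choice for 2076), and genes under the 40th percentile of signal over all probe sets were left out. limma 3.58.1 in R 4.3.3 (lmFit, eBayes with trend, two-sided) was fitted to log2(signal + 16) of the 8 arrays as vehicle against DHT (6 residual degrees of freedom), as vehicle, early and late (5), and with a sex by DHT term over 15 arrays (11). Scripts were tested on simulated data. Vehicle replicate numbers follow accession order and pair nothing.

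Genes printed are a selection from those a fixed rule picks: for DHT over all times the 12 smallest p each way, for the windows genes that passed filled to 4 each way, for single times the 4 highest and lowest, for the sex difference 3 each way, and the 4 largest differences of each of the 36 gene lists. Genes named for groups that did not overlap, for counts over several times, for a control level that followed them, or as further list members were chosen after their values were seen. The arrays and lists were chosen with earlier results of these data known. Alternatives covered the added constant, the filter, quantile normalization, probe set means, the prior, the control level, log2 time, males in the fit and each array left out. Promoters came from RefSeq (GRCm38.p6), without chromosome 18.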

Additional observations from a re-analysis of the deposited data

Results flagged for a closer look

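Over the 6 DHT arrays, 40 series of values (summed marker lists, named genes and the control level) were examined for 1 array that stands apart from the other 5 by Dixon's criterion. Chance alone marks about 1 in 20 such series. The summed signal of exocrine pancreas markers was 112880 on the 12 h array and 3920 to 7067 on the others (gap over range 0.971). Ccnd2 had a signal of 418 on the 18 h array and 165 to 209 on the others (0.827). Cdsn had 885 on the 24 h array and 1175 to 1321 on the others (0.666). Nrip1 had 1113 on the 18 h array and 971 to 1024 on the others (0.628), and without that array all its DHT signals still lay above both vehicle arrays.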

How the results depend on the processing

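For DHT over all times, 0 genes passed under every alternative except log2 time as covariate, under which 1 gene, Inmt, passed, and leaving out any array gave 0. For the early times, the count of 1 (Sod1) became 0 without a filter on low signals, without a trend in eBayes, with the control level as covariate and with 15 or 16 arrays including males, and ranged from 0 to 1 when each array was left out, with Gdap10 in place of Sod1 without vehicle 1. For late against early it became 0 with the control level as covariate and with 16 arrays, held Irf4 in place of Sod1 with 15 arrays, and ranged from 1 to 4 over the arrays left out, with 4 (Dhrs3, Kdelr2, Slc39a1 and Sod1) when either vehicle array was left out. For late against vehicle it was 0 throughout. The sex difference of the response gave 1 gene without a filter (Prol1) and 1 without the female 18 h array (Mmp9), a range of 0 to 1 over the arrays left out, and Dvl1 reversed to 0.15 with 16 arrays. A vehicle array left out changes the standard error of late against early but not the difference itself. Causes were otherwise not tested.

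Counts past the fold rule at the 6 successive times were 139, 130, 144, 184, 359 and 189 without a filter, and 10, 7, 10, 21, 22 and 13 with a fold of 3. With 64 added to signals they were 25, 16, 68 and 25 at 1, 3, 18 and 24 h. The following alternatives were chosen after seeing the data. Genes with all DHT arrays above both vehicle arrays numbered 179 to 1000 over the arrays left out, and those below 111 to 1155, partly by construction since fewer arrays are compared, and 156 lay below without a filter. When early arrays were set against vehicle 2 and late arrays against vehicle 1, which have the nearer control levels, 301 genes were above and 243 below. The hormone response element members above numbered 12 in that setting (38.7%, against 5.3% of all genes). Over the arrays left out they numbered 6 to 13 (19.4% to 41.9%, against 3.15% to 17.6% of all genes).

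No paired analysis was possible because the labels give the arrays no replicate numbers. With 2 vehicle arrays that differ in control level and 1 array per time, a change at 1 time cannot be told apart from a property of its array. At low signals, background makes up more of the value.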
